A study of Homo sapiens with 20 samples.

Results

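The core antiviral effectors described here are 50 interferon-stimulated genes (ISGs), the products of which act directly on viruses or on the cell's nucleic acids, membranes and protein turnover. They were taken by gene symbol, from a list drawn up with earlier results of these data known, and each of the 50 symbols matched 1 of the 58233 Ensembl gene IDs counted in every library. RNA-seq was performed in 4 human lung cancer cell lines: A549, a lung adenocarcinoma line; HCC366, a lung adenosquamous carcinoma line; NCI-H1650, a lung adenocarcinoma line; and NCI-H196, a variant small cell lung carcinoma line. All cells carried Cas9 and a single-guide RNA (sgRNA) against either GFP, a sequence absent from these genomes that serves as control, or ADAR, and both targets were represented by 2 sgRNAs in every condition. Control and ADAR knockout (KO) A549 cells were given vehicle (water) or interferon-β (IFN-β; 24 h at 10 ng/mL), whereas the other lines were left untreated, which gives 10 conditions and 20 libraries. The 2 libraries of a condition thus differ in their sgRNA. Every standard error (SE) and adjusted p-value below rests on the spread between 2 sgRNAs, which may be technical. That spread was pooled over the conditions of a fit and moderated over genes. The counting intervals hold none of it.

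Type I interferons bind the receptor pair IFNAR1 and IFNAR2 and, through the kinases JAK1 and TYK2, activate a transcription factor complex that contains STAT2 and IRF9 and binds interferon-stimulated response elements in ISG promoters. Many ISGs are silent or low in resting epithelial cells and are switched on within hours of interferon exposure. ADAR encodes ADAR1, an enzyme that converts adenosine to inosine in double-stranded RNA, and its longer isoform is itself interferon-inducible. The 50 genes were sorted by role into 7 membrane and entry restriction genes (MX1, MX2, BST2, LY6E, PLSCR1, RTP4 and IFI6), 13 nucleotide- and RNA-acting enzymes (RSAD2, CMPK2, ISG20, DDX60, DDX60L, HELZ2, MOV10, PNPT1, CMTR1, NT5C3A, SAMD9, SAMD9L and TDRD7), 11 nuclear body and ubiquitin ligase genes (PML, SP100, SP110, TRIM5, TRIM14, TRIM21, TRIM22, TRIM25, TRIM26, TRIM34 and RNF213), 7 apolipoprotein L, lysosomal and secreted genes (APOL1, APOL2, APOL6, LGALS3BP, IFI30, LAMP3 and LAP3) and 12 other interferon-induced or regulatory genes (IFI27, IFI35, NMI, IFI44, IFI44L, EPSTI1, XAF1, BATF2, PHF11, TRANK1, SHISA5 and TMEM140).

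Reads assigned to genes ranged from 62679 in the second control library of NCI-H196 to 19520189 in the second IFN-β-treated ADAR KO library of A549. In that shallow NCI-H196 library the 50 genes had a median of 8 reads, at most 81, and 5 of them had 0 reads, against a median of 510 reads in the first control library. In the second ADAR KO library of HCC366, 85.6% of reads were not uniquely aligned, against 22.5% to 59.1% in the other libraries. Among immune markers, CD3E and LYZ had no reads in any control condition, PTPRC and CD68 had means of at most 0.594 CPM (counts scaled to a common library size), and CD14 had means of 0.437 to 5.19 CPM. Keratin gene KRT8 lay between 1800.5 and 3448 CPM in A549, HCC366 and NCI-H1650. In NCI-H196, KRT8 was at 31.7 CPM and the mesenchymal gene VIM at 1856 CPM, and among neuroendocrine markers INSM1 had no reads, CHGA and SYP were at 0.594 and 0.643 CPM and NCAM1 was at 12.4 CPM. The squamous genes KRT5 and TP63 were at 0.377 and 1.36 CPM in HCC366, and TP63 was at 29.0 CPM in NCI-H196. The labelled small cell and adenosquamous types were thus not seen in most of these markers.

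Promoter sequence was available for 41 of the 50 genes as RefSeq windows (GRCh38.p14) that reach from 250 bases before to 50 bases after each annotated start. The letters GAAA, any 2 bases and again GAAA, on either strand, which are the core of the interferon-stimulated response element, occurred in 24 of these 41 genes (58.5%) and in 4.38% of all 27305 genes with a window. The letters TTCNNNGAA on either strand, the core of the gamma-activated site, occurred in 10 of the 41 genes (24.4%) and in 9.38% of all genes. Of these windows 3 are shown in part, each as the 250 bases before the start in the direction of transcription. IFI44 (chr1:78649539-78649788, plus strand) and BST2 (chr19:17405631-17405880, minus strand) are shown because they had the largest fitted IFN-β responses among the genes whose windows hold the first motif, a rank that rests on 0 reads in the vehicle libraries, and BATF2 (chr11:64990278-64990527, minus strand) because it rose most after ADAR KO under IFN-β. The BATF2 window belongs to a start inside the annotated gene. Capitals mark every base that lies in either motif.
IFI44: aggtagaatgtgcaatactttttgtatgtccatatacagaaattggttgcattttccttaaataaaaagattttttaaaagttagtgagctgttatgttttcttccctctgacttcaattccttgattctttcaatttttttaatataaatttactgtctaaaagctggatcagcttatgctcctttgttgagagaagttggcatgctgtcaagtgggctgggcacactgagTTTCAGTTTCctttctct
BST2: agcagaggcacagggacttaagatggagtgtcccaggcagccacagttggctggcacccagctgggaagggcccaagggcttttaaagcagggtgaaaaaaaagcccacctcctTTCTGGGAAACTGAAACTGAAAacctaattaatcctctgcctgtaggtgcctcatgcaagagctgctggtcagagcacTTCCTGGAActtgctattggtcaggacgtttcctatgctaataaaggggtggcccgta
BATF2: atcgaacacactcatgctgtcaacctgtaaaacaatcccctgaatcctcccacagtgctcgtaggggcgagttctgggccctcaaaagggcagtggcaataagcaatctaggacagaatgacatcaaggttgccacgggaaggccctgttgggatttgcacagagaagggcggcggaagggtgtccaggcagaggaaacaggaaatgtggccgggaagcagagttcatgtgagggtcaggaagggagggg
The IFI44 window holds 1 response element core whose first base lies 18 bases before the start. The BST2 window holds 2 overlapping response element cores at 130 and 124 bases before the start and 2 gamma-activated site cores at 136 and 58 bases before it, the first of which overlaps a response element core. The BATF2 window holds neither set of letters. Windows were not in the table used for MX2, LY6E, PML, TRIM22, APOL1, APOL2, APOL6, LAMP3 and PHF11.

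ADAR transcript levels were examined first in every library, as the targeted gene. In A549, ADAR was at 436 and 437 CPM in the vehicle control libraries and at 161 and 250.1 CPM after KO. With IFN-β it was at 1219 and 1193 CPM in control cells and at 691 and 895 CPM after KO, so that the KO cells given IFN-β held more ADAR transcript than untreated control cells. The KO fold change was -1.08 on the log2 scale with vehicle and -0.60 with IFN-β (edgeR adjusted p = 9.98e-05 and 0.00148). In NCI-H1650 ADAR fell from 621 and 760.5 CPM to 296 and 268 CPM, and in NCI-H196 from 664 and 865 CPM to 564 and 482 CPM. In HCC366 the values were 804 and 1101 CPM against 571 and 490.2 CPM, a difference that did not pass the test (log2 fold change -0.84, edgeR adjusted p = 0.208). A transcript level reports on an edited gene only in part, since insertions and deletions made by Cas9 can leave the RNA in place.

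To measure the response of each effector to interferon, IFN-β-treated and vehicle-treated control A549 cells were compared. Of the 50 genes, 47 passed the filter on low counts and 46 of those were higher with IFN-β (edgeR adjusted p below 0.05), where 4.39% of all 15449 genes tested were called higher. The median log2 fold change of the 47 genes was 4.08, against a median of 0.00 for all genes tested, and it was the same with the 5 genes at 0 reads in vehicle set to the smallest fold the counting floor allows. In these bulk libraries a rise in every cell and a rise in some cells cannot be told apart. For 12 of the 47 the filter was passed only through the treated libraries, so that those genes had to differ. They were MX1, MX2, BST2, RSAD2, TRIM22, LAMP3, IFI27, IFI44, IFI44L, EPSTI1, XAF1 and BATF2, and lie in all the role groups. Among the 34 genes above the filter level of 0.976 CPM in every vehicle library, 33 were called higher, with a median log2 fold change of 3.14 and a range of 0.95 (SHISA5) to 8.13 (IFI6). The libraries of both conditions did not overlap for any of the 47 genes, where both treated libraries lay above both vehicle libraries for 21.7% of all genes.

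The membrane and entry restriction genes had the largest median of the 5 role groups, with 6 of 6 tested genes higher and a median log2 fold change of 9.49, or 8.37 with BST2 at its bound. Of these 6, MX1, MX2 and BST2 passed the filter only through the treated libraries, so that the rank of the group is a description only. BST2 (tetherin), which holds budding virions at the cell surface, had 0 reads in both vehicle libraries and was at 43.0 and 58.1 CPM with IFN-β, at least 393-fold higher. MX1, a dynamin-like GTPase that traps viral nucleocapsids, was at 0.528 and 0.465 CPM with vehicle and at 917 and 921 CPM with IFN-β (log2 fold change 10.85, SE 0.19). MX2, a related GTPase that acts at the nuclear pore, had 0 and 1 reads with vehicle and was at 193 and 179 CPM with IFN-β, a ratio of summed reads of 4178 (95% exact counting interval 749.5 to 165056). These 3 genes were thus at or near 0 in resting A549 cells. IFI6, a small membrane protein, rose from 1.98 and 3.05 CPM to 693 and 805 CPM (log2 fold change 8.13). LY6E, a GPI-anchored surface protein, started from 91.6 and 82.2 CPM and rose to 329.5 and 402 CPM, the smallest change of the group (log2 fold change 2.08, SE 0.11). RTP4 did not pass the filter, with 0 reads with vehicle and 25 with IFN-β over both libraries.

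All 13 nucleotide- and RNA-acting enzymes were higher with IFN-β (median log2 fold change 4.31). RSAD2 (viperin), which makes a chain-terminating nucleotide, had 3 reads in the vehicle libraries and was at 78.9 and 77.5 CPM with IFN-β, a ratio of 589 (95% exact counting interval 201 to 2858). CMPK2, a mitochondrial nucleotide kinase encoded next to RSAD2 on the opposite strand, rose from 2.51 and 1.53 CPM to 217 and 197 CPM (log2 fold change 6.78). SAMD9L and SAMD9, restriction factors for poxviruses, rose by 6.37 and 5.86 on the log2 scale. The smallest responses of this group were those of genes already expressed at rest. CMTR1, the methyltransferase that modifies the first transcribed nucleotide of mRNAs, went from 45.9 and 40.0 CPM to 108 and 129 CPM (log2 fold change 1.47), and MOV10, an RNA helicase, from 47.4 and 40.2 CPM to 175 and 182 CPM (log2 fold change 2.04).

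The nuclear body and ubiquitin ligase genes had the lowest median of the role groups (2.86, 10 of 10 tested higher). TRIM22, a ubiquitin ligase active against retroviruses and influenza virus, stood apart from the rest of its group, at 0.396 and 0.598 CPM with vehicle and 159 and 157 CPM with IFN-β (log2 fold change 8.19, SE 0.21). The other tested TRIM genes rose by 1.21 (TRIM26) to 3.16 (TRIM21). TRIM26 was at 50.1 and 57.1 CPM with vehicle and at 124 CPM in both treated libraries. The nuclear body genes PML, SP100 and SP110 rose by 3.38, 3.12 and 4.56, and RNF213, a very large ubiquitin ligase, went from 704 and 724 CPM to 3013 and 3496 CPM (log2 fold change 2.19). TRIM34, whose exons overlap the readthrough gene TRIM6-TRIM34 on the same strand, had 0 reads with vehicle and 4 with IFN-β.

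The 6 tested apolipoprotein L, lysosomal and secreted genes were all higher (median log2 fold change 3.33). LAMP3, a lysosome-associated membrane protein of maturing dendritic cells, had 0 reads with vehicle and was at 26.5 and 21.1 CPM with IFN-β, at least 175-fold higher. APOL1, a secreted and intracellular apolipoprotein that lyses trypanosomes, rose from 13.3 and 12.1 CPM to 211 and 250 CPM (log2 fold change 4.19), and its neighbour APOL2 from 28.2 and 26.7 CPM to 135 and 148 CPM (log2 fold change 2.37). IFI30, a lysosomal thiol reductase with another annotated gene on the same strand over it, stayed under the filter with 2 reads against 15, a ratio of 6.34 (95% exact counting interval 1.48 to 57.2).

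Of the remaining 12 genes, 11 were higher. XAF1, an antagonist of the apoptosis inhibitor XIAP, had 0 reads in the vehicle libraries and was at 68.6 and 73.5 CPM with IFN-β, at least 539.6-fold higher, and IFI44 and IFI44L, neighbouring genes of the same family, were at least 399-fold and 261-fold higher. IFI44 was at 55.1 and 51.5 CPM with IFN-β and IFI44L at 39.6 and 31.4 CPM, both with 0 reads with vehicle. IFI27, a small hydrophobic mitochondrial protein, rose from 0.396 and 0.398 CPM to 211 and 232 CPM (log2 fold change 9.09). TMEM140 was the 1 tested gene whose change did not pass the test, at 24.9 and 25.9 CPM with vehicle and at 26.4 and 27.8 CPM with IFN-β (log2 fold change 0.09, SE 0.15, edgeR adjusted p = 0.854). EPSTI1 was the only call lost in any alternative analysis (edgeR adjusted p up to 0.0762). It rested on 3 reads against 60, a ratio of 16.9 (95% exact counting interval 5.52 to 84.3). The plot of the A549 libraries shows these values for all 50 genes.

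**Figure D1:**
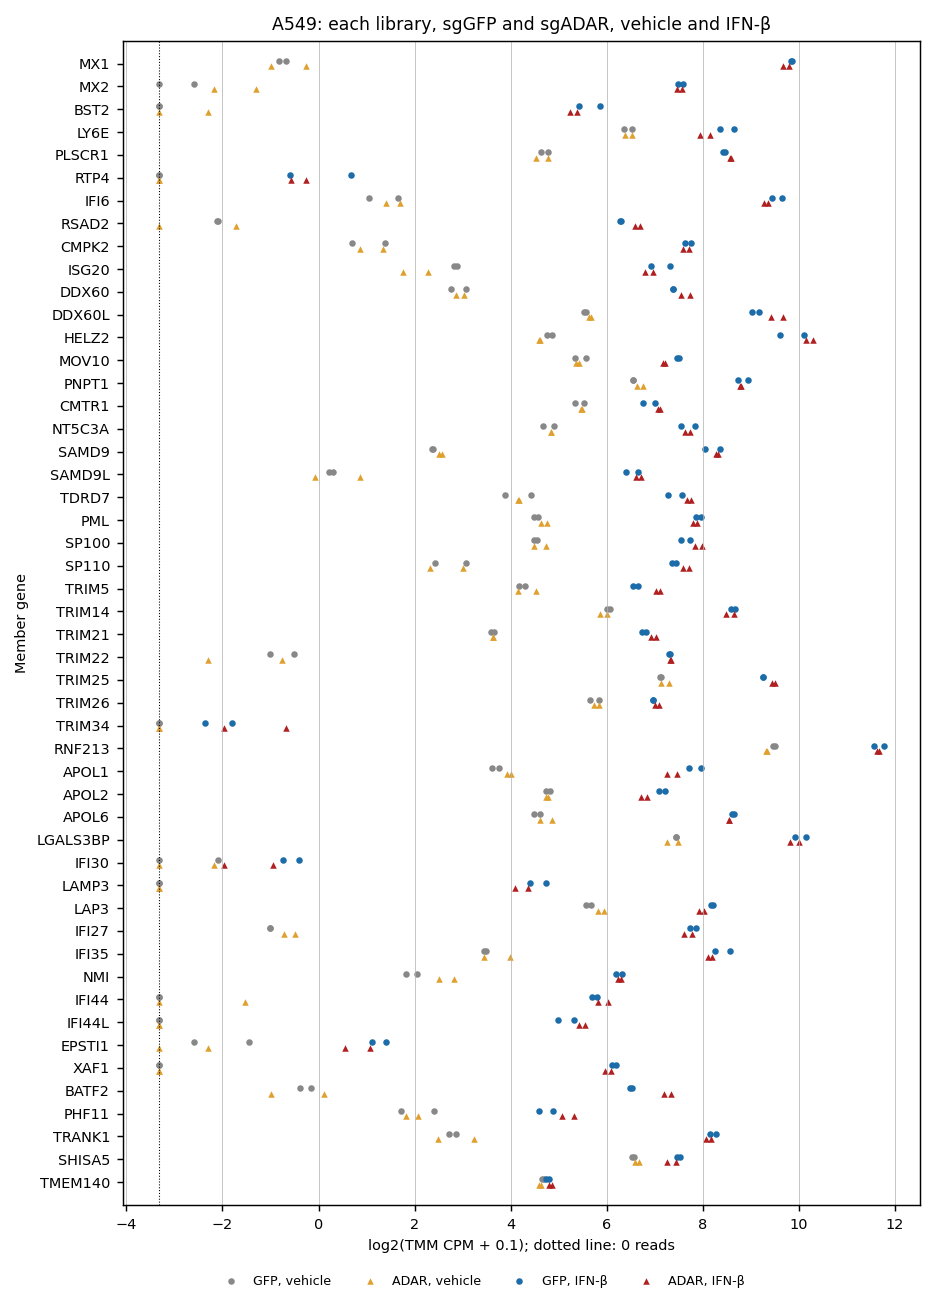
Level of each of the 50 genes in the 8 A549 libraries, as log2(CPM + 0.1) on the horizontal axis, with genes in rows ordered by role, circles for control, triangles for ADAR KO, colours for the treatment and 2 points for the 2 sgRNAs of each condition. The dotted line marks 0 reads. The vehicle and IFN-β points lie close together for TMEM140 and apart for the other tested genes, and BATF2 shows the widest gap between control and ADAR KO with IFN-β among the called genes.

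The motif letters were compared with the size of the response as a description only. The 22 tested genes with the response element letters had a median log2 fold change of 4.14, and the 16 tested genes with windows but without these letters had a median of 3.89, both the same with genes at 0 reads in vehicle set to their bounds. XAF1, with 0 reads in vehicle, has 2 windows and neither holds the response element letters.

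The same genes were then compared between the untreated control cells of the 4 lines. Levels are given here per kilobase of the canonical transcript (CPM per kb), on 1 scale set over the 10 control libraries. Per kilobase, the most abundant members in vehicle-treated A549 cells were LGALS3BP (97.4), LY6E (94.6), SHISA5 (56.6) and RNF213 (41.7). In IFN-β-treated A549 cells they were IFI6 (1128), LGALS3BP (581), MX1 (405), LY6E (396) and IFI27 (378), so that MX1 and IFI27 moved from near 0 into the first 5.

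Against vehicle-treated A549 cells, 48 members passed the filter, and the counts of higher members were 39 for HCC366, 39 for NCI-H1650 and 37 for NCI-H196 (edgeR adjusted p below 0.05). Of all 17090 genes tested, 29.7%, 32% and 33.5% were called higher in these comparisons, and 30.8%, 32.2% and 32.7% lower. The median log2 differences of the 48 members were 1.84, 2.40 and 1.91, while those of all genes were 0, 0 and 0.02. For 14 of the 48 the filter was passed without any vehicle library, so that those genes had to differ from vehicle A549 in some other condition. They were MX1, MX2, BST2, RTP4, RSAD2, SAMD9L, TRIM22, LAMP3, IFI27, IFI44, IFI44L, EPSTI1, XAF1 and BATF2. The counts and medians above include them, and none was taken without them, so these are a description only. These comparisons share the vehicle A549 libraries, and cell line, sequencing depth and handling before RNA isolation cannot be told apart in them. Per the study's methods, RNA of the other lines was taken at a set time after transduction, and that of A549 after 24 h of treatment.

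BST2, IFI44 and IFI6 were at 0 or low in resting A549 cells and higher in all 3 other lines. BST2, with 0 reads in vehicle A549, was at 103 and 151 CPM per kb in HCC366, 93.0 and 126 in NCI-H1650 and 170.3 and 220.4 in NCI-H196. This is at least 846-fold, 667-fold and 1044-fold higher than in vehicle A549. IFI44 was at 42.1 and 81.0 CPM per kb in HCC366, 94.0 and 73.8 in NCI-H1650 and 49.4 and 72.2 in NCI-H196, at least 724-fold, 865-fold and 509.8-fold higher. IFI6, at 2.98 and 4.68 CPM per kb in vehicle A549, was at 446 and 694 in HCC366, 417 and 533 in NCI-H1650 and 804 and 679 in NCI-H196. These 3 genes were high in every untreated library of the other lines, including the library of NCI-H196 with few reads.

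**Figure D2:**
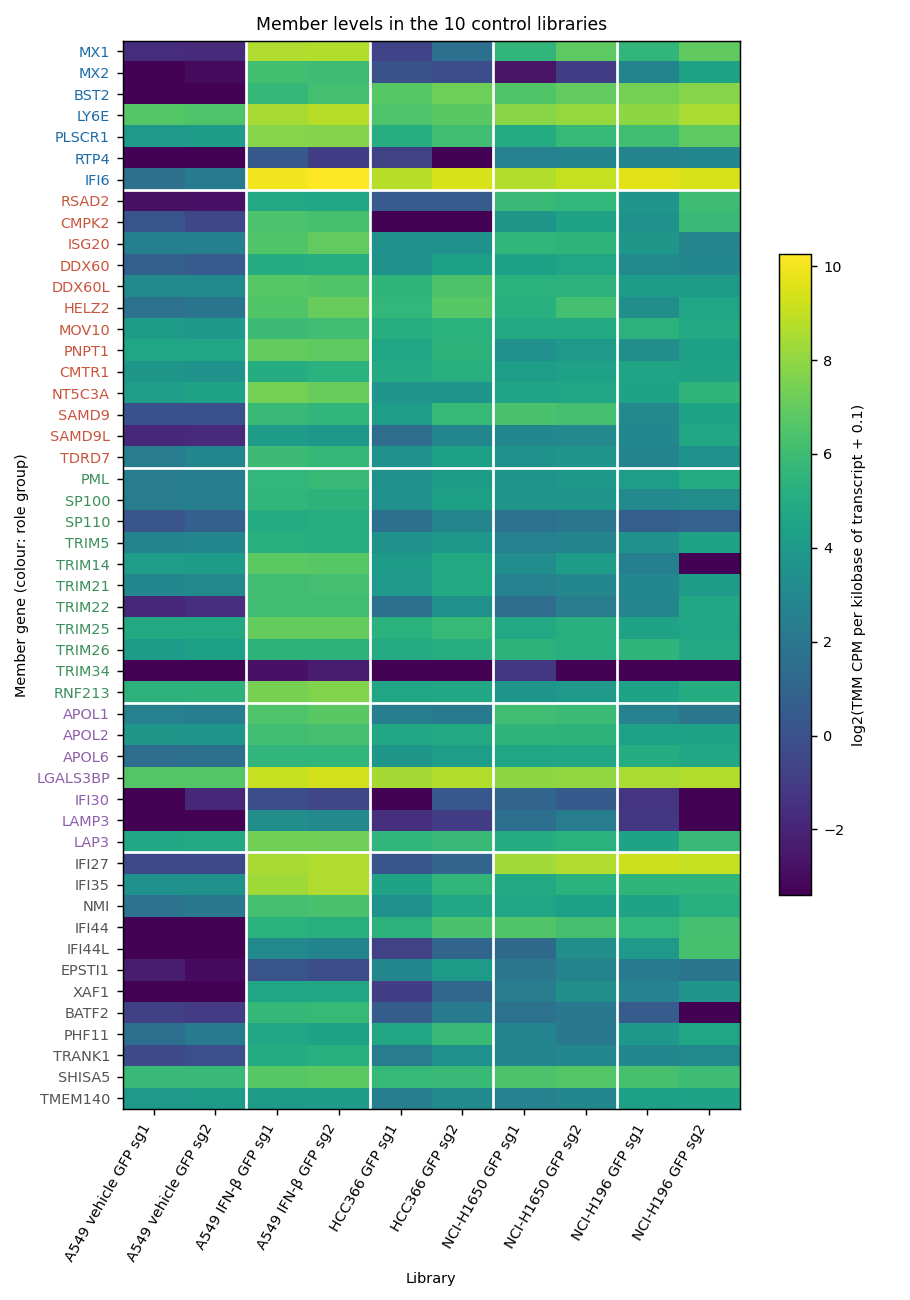
Heat map of the level of each member, as log2(CPM per kb + 0.1), in the 10 control libraries (vehicle A549, IFN-β A549, HCC366, NCI-H1650 and NCI-H196, 2 sgRNAs each), with genes in rows by role and yellow for high, dark blue for low values. BST2 and IFI44 are at 0 in vehicle A549 and high in all other columns, whereas MX1 and IFI27 are low in HCC366 and CMPK2 is at 0 there.

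Other members differed strongly between the 3 lines. MX1 was at 0.543 and 2.92 CPM per kb in HCC366 but at 47.5 and 118 in NCI-H1650 and 48.8 and 123 in NCI-H196. IFI27 was at 1.05 and 1.95 CPM per kb in HCC366 but at 324 and 389 in NCI-H1650 and 592 and 524 in NCI-H196. CMPK2 had 0 reads in both HCC366 control libraries, at least 3.75-fold lower than in vehicle A549, and was at 13.9 and 22.2 CPM per kb in NCI-H1650 and 11.8 and 57.0 in NCI-H196. HCC366 thus lacked or nearly lacked 3 members that were abundant in both other lines, while its BST2, IFI44 and IFI6 values overlapped those of NCI-H1650.

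RSAD2, which shares its locus with CMPK2, was at 1.33 and 1.31 CPM per kb in HCC366, 55.2 and 50.6 in NCI-H1650 and 13.7 and 64.8 in NCI-H196. The ratio to vehicle A549, where 3 reads were counted, was 27.4 (95% exact counting interval 8.23 to 143.0), 1103 (377 to 5352) and 294 (99.9 to 1428). MX2 was lowest in NCI-H1650, at 0.0584 and 0.435 CPM per kb, against 0.884 and 0.821 in HCC366 and 6.68 and 22.7 in NCI-H196. Over vehicle A549, with 1 read, the MX2 ratios were 52.3 (95% exact counting interval 7.96 to 2212) in HCC366, 15.04 (2.02 to 667) in NCI-H1650 and 426 (75.7 to 16894) in NCI-H196. MX1 and MX2, neighbouring genes on chromosome 21, therefore did not follow each other in NCI-H1650. APOL1 was high in NCI-H1650 (66.4 and 60.04 CPM per kb) and low in HCC366 (5.39 and 4.60) and NCI-H196 (6.27 and 3.95), where the values overlapped the 5.83 and 5.38 of vehicle A549.

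IFI44L was at 0.517 and 1.97 CPM per kb in HCC366, 2.42 and 10.1 in NCI-H1650 and 15.7 and 77.6 in NCI-H196, at least 56.0-fold, 219-fold and 579.9-fold above vehicle A549. XAF1 was at 0.441 and 2.05 CPM per kb in HCC366, 5.06 and 10.1 in NCI-H1650 and 6.29 and 12.9 in NCI-H196, at least 33.6-fold, 157-fold and 132-fold higher. Both were lowest in HCC366, and for both the second sgRNA library held the higher value in each line. EPSTI1, an epithelial and stromal interaction protein, was at 7.28 and 16.2 CPM per kb in HCC366, 3.91 and 6.48 in NCI-H1650 and 4.40 and 3.55 in NCI-H196, against 0.104 and 0.0266 in vehicle A549. SAMD9 was at 18.7 and 52.9 CPM per kb in HCC366, 81.5 and 72.0 in NCI-H1650 and 8.17 and 22.7 in NCI-H196, against 0.924 and 0.922 in vehicle A549. RTP4 was at 5.83 and 6.78 CPM per kb in NCI-H1650 and 6.33 and 7.35 in NCI-H196, at least 57.6-fold and 58.1-fold above vehicle A549, with 1 read in HCC366. LAMP3 was at 0.236 and 0.438 CPM per kb in HCC366, 2.86 and 5.17 in NCI-H1650 and 0.341 and 0 in NCI-H196. In the second NCI-H196 control library 1 read is worth 11.0 CPM on this scale. The RTP4, EPSTI1 and APOL1 values of that library stand for 1 read each, as does its SP110 value given further on. LAMP3, BATF2 and TRIM14 had 0 reads in that library, and low levels of them could not be seen in it.

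Few members were lower than in vehicle A549. RNF213 was lower in all 3 lines (log2 differences of -0.69 for HCC366, -1.57 for NCI-H1650 and -0.73 for NCI-H196), at 40.8 and 42.7 CPM per kb in vehicle A549 and 24.2 and 27.6, 12.7 and 15.6, and 22.9 and 33.0 in these lines. TMEM140 was lower in HCC366 and NCI-H1650 (-1.05 and -1.19), PNPT1 and TRIM14 in NCI-H1650 (-0.90 and -0.41) and NCI-H196 (-1.29 and -1.74), NT5C3A in HCC366 (-0.60) and TRIM25 in NCI-H196 (-0.44). TRIM34 and IFI30 did not pass the filter. TRIM34 had 4 reads in NCI-H1650 and 0 in the other untreated lines, and IFI30 had 2 to 16 reads per condition.

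Set against the IFN-β-treated A549 libraries, the members of the untreated lines were mostly lower, with 42 lower and 4 higher in HCC366, 38 lower and 6 higher in NCI-H1650 and 40 lower and 6 higher in NCI-H196. Of all genes, 31.6%, 32.9% and 33.5% were called lower and 29.2%, 31.2% and 32.9% higher. The median log2 differences were -1.76, -1.28 and -1.97. BST2, IFI44 and EPSTI1 were higher in each untreated line than in IFN-β-treated A549, by 1.08, 0.75 and 3.82 in HCC366, 0.82, 1.12 and 2.53 in NCI-H1650 and 1.498, 0.39 and 2.29 in NCI-H196 on the log2 scale. The IFI44 call in NCI-H196 was kept in 2 of 9 alternatives (0.28 to 0.87, edgeR adjusted p up to 0.358), and those of IFI44 in HCC366 and of EPSTI1 in NCI-H196 in 8 of 9. RTP4 was higher in NCI-H1650 (2.99) and NCI-H196 (3.002), IFI27 (0.62) and IFI44L (1.57) in NCI-H196, RSAD2 (0.92) and SAMD9 (0.54) in NCI-H1650 and PHF11 (0.92) in HCC366.

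The members farthest below the IFN-β-treated A549 level differed from line to line. In HCC366, CMPK2 was at least 409-fold lower, and the log2 differences were -7.77 for IFI27, -7.50 for MX1, -6.30 for MX2, -4.55 for LAMP3, -4.41 for RSAD2, -4.38 for APOL1, -4.01 for XAF1 and -3.94 for BATF2. RTP4 was at 1 read there against 25, a ratio of 5.61 with a 95% exact counting interval of 0.918 to 230.1. In NCI-H1650 the log2 differences were -8.08 for MX2, -4.10 for TRIM22, -3.86 for BATF2, -3.74 for RNF213, -3.36 for TRIM21, -3.35 for IFI35, -3.24 for SP110, -3.18 for PNPT1 and -2.997 for TRIM14. In NCI-H196 they were -5.27 for BATF2, -4.72 for LAMP3, -4.41 for SP110, -4.33 for TRIM14, -4.02 for APOL1, -3.57 for PNPT1, -3.35 for HELZ2, -3.23 for MX2, -3.17 for TRIM22 and -3.14 for TRIM21. BATF2, a transcription factor of the basic leucine zipper family, and MX2 were among the 10 farthest from treated A549 in all 3 lines. BATF2 was at 52.3 and 54.4 CPM per kb with IFN-β in A549 and at 1.46 and 4.33 in HCC366, 3.27 and 4.10 in NCI-H1650 and 1.39 and 0 in NCI-H196. That 0 is from the shallow library, in which a low BATF2 level could not be seen.

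The levels per kilobase behind these differences were as follows. TRIM22 was at 66.7 and 67.1 CPM per kb with IFN-β in A549, 2.87 and 11.04 in HCC366, 2.69 and 5.14 in NCI-H1650 and 6.96 and 26.7 in NCI-H196. TRIM21, an antibody receptor and ubiquitin ligase, was at 66.8 and 71.7 with IFN-β in A549, 15.6 and 29.8 in HCC366, 6.17 and 7.34 in NCI-H1650 and 7.67 and 17.1 in NCI-H196. IFI35, a leucine zipper protein that pairs with NMI, was at 312 and 395 with IFN-β in A549, 22.3 and 47.6 in HCC366, 29.3 and 40.3 in NCI-H1650 and 46.0 and 46.7 in NCI-H196. None of these 3 genes reached the treated A549 level in any untreated library. TRIM14, a mitochondrial adaptor, was at 110.4 and 105 with IFN-β in A549, 16.1 and 30.1 in HCC366, 9.81 and 17.3 in NCI-H1650 and 5.502 and 0 in NCI-H196. PNPT1, a mitochondrial exoribonuclease, was at 131 and 115 with IFN-β in A549, 25.3 and 43.2 in HCC366, 11.4 and 15.8 in NCI-H1650 and 9.97 and 19.4 in NCI-H196. Both genes were below treated A549 in every untreated library. SP110 was at 31.9 and 34.4 with IFN-β in A549, 3.04 and 7.002 in HCC366, 3.21 and 3.80 in NCI-H1650 and 1.55 and 1.78 in NCI-H196. HELZ2 was at 94.3 and 135 with IFN-β in A549, 49.0 and 106 in HCC366, 38.5 and 72.6 in NCI-H1650 and 9.99 and 25.4 in NCI-H196, and its second HCC366 library lay between the treated A549 libraries.

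**Figure D3:**
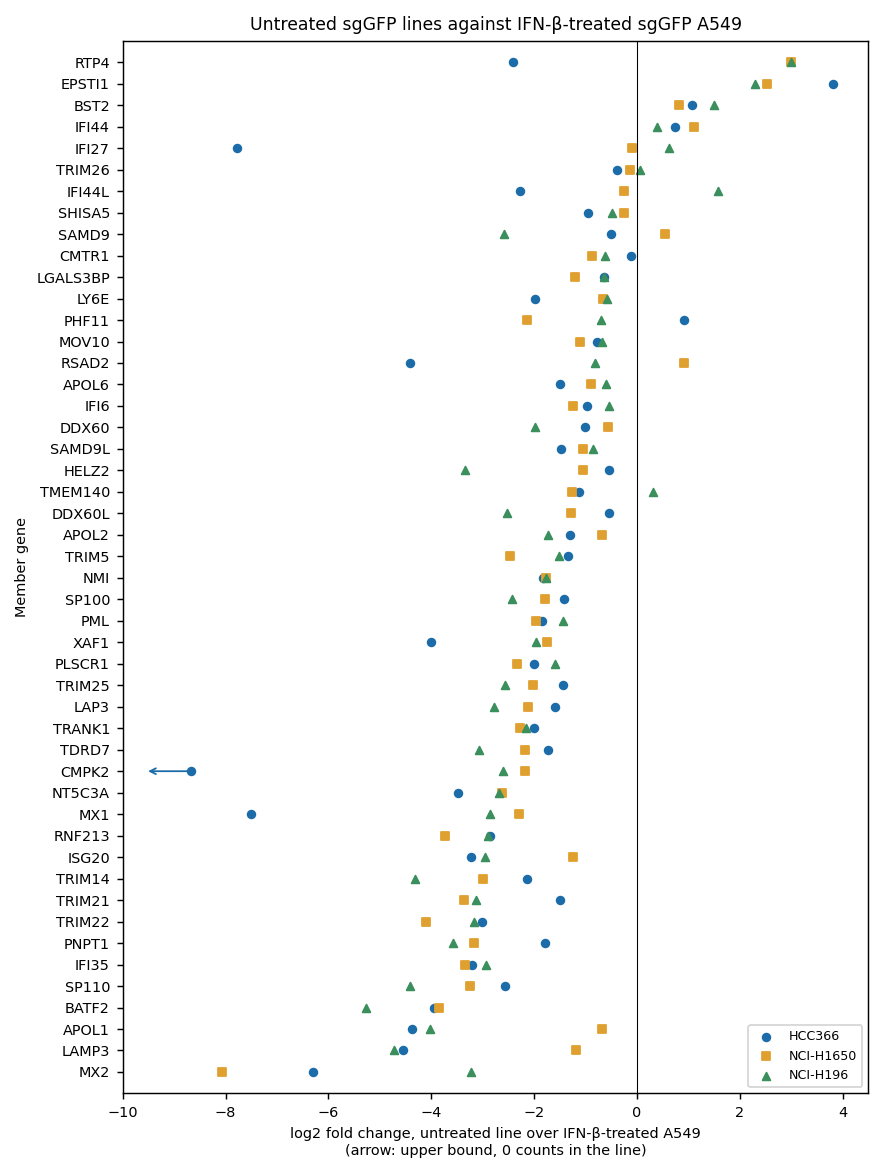
Log2 difference of each tested member (48) between the untreated control cells of HCC366, NCI-H1650 or NCI-H196 and the IFN-β-treated control A549 cells, 1 colour and symbol per line, with the vertical line at 0. Most points lie left of 0, BST2, IFI44 and EPSTI1 lie right of it in all 3 lines, and the arrow for CMPK2 in HCC366 marks a bound.

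The 2 control libraries of a line did not give the members at 1 level. In HCC366 the second control library was higher than the first for 39 of 41 tested members, with a median log2 gap of 0.71, while it was higher for 49.98% of all genes. In NCI-H1650 it was higher for 37 of 47 members (median 0.26, all genes 50.4%) and in NCI-H196 for 36 of 47 (median 0.61, all genes 34.4%). In control A549 cells the second library was higher for 32 of 47 members with vehicle (all genes 50.3%) and for 24 of 47 with IFN-β (all genes 49.8%). In NCI-H1650, MX1 was at 146 and 368 CPM, IFI44L at 15.7 and 66.4 and HELZ2 at 427 and 819 in the control libraries, on the scale of that line. The comparison of ADAR KO with control in these lines therefore rests on control values that differ by sgRNA.

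ADAR KO was then compared with control within each line and treatment. In vehicle-treated A549 cells 0 of the 47 tested members were called by edgeR, where 0.123% of all genes were. DESeq2 also called 0, and 3 of the 47 had an unadjusted edgeR p under 0.05. Both KO libraries lay above both control libraries for 11 of the 47 members (18.8% of all genes) and below for 5 (17.8%). The libraries overlapped for the other 31. The log2 fold changes of members with at least 1 CPM in the control libraries lay between -0.79 for ISG20 and 0.70 for NMI, of which neither passed the test (edgeR adjusted p = 0.595 and 0.777). ISG20, an exonuclease that degrades single-stranded RNA, was at 7.26 and 6.97 CPM in control and 3.29 and 4.78 CPM in KO cells. NMI, a partner of STAT proteins, was at 3.43 and 4.05 CPM against 6.95 and 5.59 CPM. BST2, MX2, IFI44, IFI44L, XAF1 and LAMP3, with 0 or 1 reads in vehicle-treated control cells, had at most 4 reads over both KO libraries.

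With IFN-β, 9 of the 47 tested members differed between ADAR KO and control A549 cells, 5 higher and 4 lower. This is 19.1% of the members, where 17% of all genes were called (10.8% higher and 6.19% lower). Both KO libraries lay above both control libraries for 18 members (28.2% of all genes) and below for 14 (27.5%). The largest change was that of BATF2, at 89.1 and 91.3 CPM in control and 145 and 162 CPM in KO cells (log2 fold change 0.77, SE 0.12, edgeR adjusted p = 1.42e-05). It is encoded at chr11:64755417-64764490 on the minus strand (GRCh37), and its call was the 1 of the 9 that was kept in every alternative.

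TRIM5, a ubiquitin ligase that recognises retroviral capsids, was at 100.3 and 92.7 CPM in control and 131 and 138 CPM in KO cells (0.48, edgeR adjusted p = 0.00417). DDX60L, a helicase-like protein, was at 577 and 519.9 CPM against 680.2 and 811 CPM (0.44, edgeR adjusted p = 0.00192). HELZ2, a helicase that also acts as a nuclear receptor coactivator, was at 777 and 1094 CPM against 1133 and 1255 CPM (0.35, edgeR adjusted p = 0.0309). RSAD2 was at 78.9 and 77.5 CPM against 96.3 and 103 CPM (0.35, edgeR adjusted p = 0.0444). In all 4 genes both KO libraries were above both control libraries, an order that adds no support, since the calls rest on the same libraries.

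The 4 members that fell were APOL1, LY6E, APOL2 and MOV10. APOL1 was at 211 and 250 CPM in control and 176 and 151 CPM in KO cells (-0.50, edgeR adjusted p = 0.00153), and APOL2 at 135 and 148 CPM against 114 and 105 CPM (-0.37, edgeR adjusted p = 0.0151). LY6E was at 329.5 and 402 CPM against 284 and 244 CPM (-0.47, edgeR adjusted p = 0.00224), and MOV10 at 175 and 182 CPM against 147 and 144 CPM (-0.29, edgeR adjusted p = 0.0484). These changes were small beside the IFN-β response of the same genes, and each of the 4 remained above its vehicle level in the KO cells. By role, the median log2 fold change was -0.18 for membrane and entry restriction genes, 0.13 for the enzymes, 0.14 for nuclear body and ubiquitin ligase genes, -0.28 for apolipoprotein L, lysosomal and secreted genes, of which 0 of 6 lay above 0, and -0.04 for the others, against -0.01 for all genes.

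**Figure D4:**
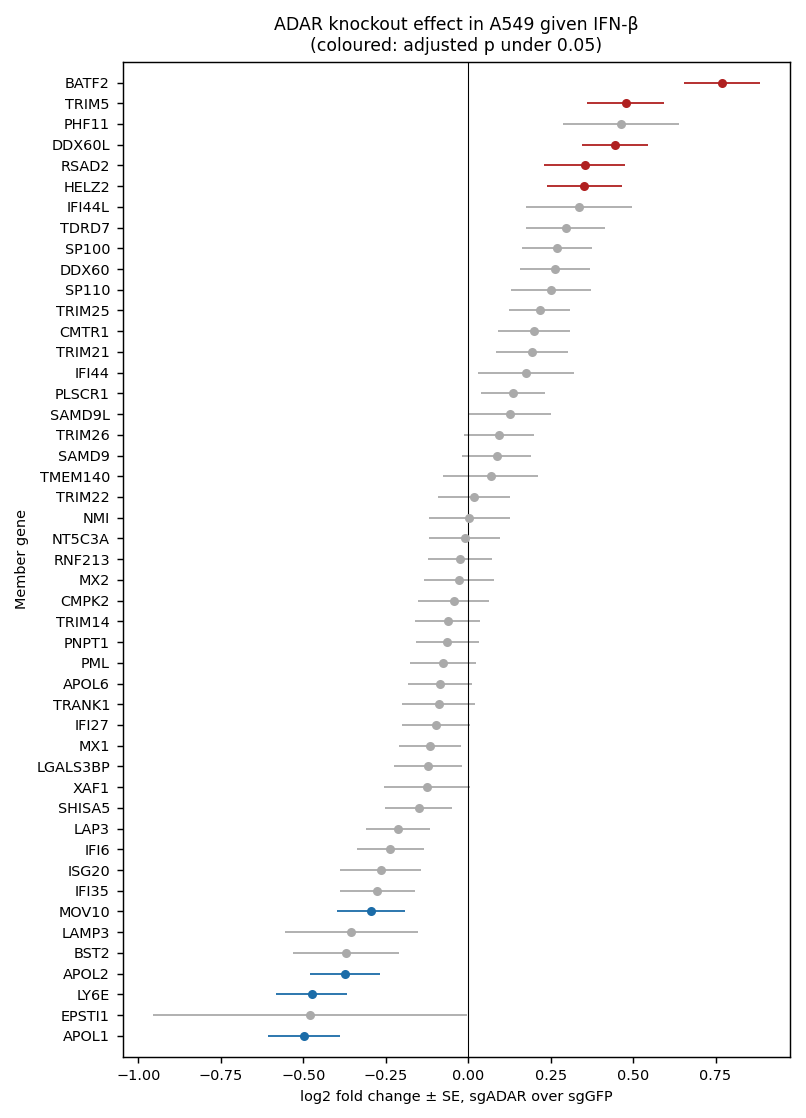
Log2 fold change of ADAR KO over control in IFN-β-treated A549 cells for the 47 tested members, with SE as bars, sorted by value, and with the 9 called genes in colour. BATF2 stands at 0.77 above the rest, and APOL1 and LY6E are lowest among the called genes.

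A change of the IFN-β response by ADAR KO was tested as the interaction of treatment and target. It passed for 1 of 47 members, APOL1 (5.05% of all genes), whose response was weaker in KO than in control cells by -0.79 on the log2 scale (SE 0.19, edgeR adjusted p = 0.0104). APOL1, at chr22:36649117-36663576 on the plus strand (GRCh37), was at 13.3 and 12.1 CPM in vehicle-treated control and 15 and 15.9 CPM in vehicle-treated KO cells, beside the IFN-β values above. Its interaction was lost without the second vehicle control library (edgeR adjusted p = 0.146), without the second vehicle KO library (0.0893), without the second IFN-β-treated KO library (0.0895) and with all 20 libraries in 1 fit (0.194), with values of -0.91 to -0.67 over all alternatives. BATF2 (0.85, edgeR adjusted p = 0.409), HELZ2 (0.56, 0.0764), LAP3 (-0.48, 0.0531) and LY6E (-0.49, 0.0675) did not pass. Members silent at rest gave imprecise interaction values. For MX2, with 1 read in vehicle-treated control and 4 in vehicle-treated KO cells, the SE was 1.17.

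Signalling genes of the pathway were read beside the effectors, from a list of 12. IFN-β raised 8 of them in control A549 cells, led by IRF7 (4.89), a transcription factor that drives interferon genes, USP18 (4.55), the protease that removes ISG15 and dampens the receptor, STAT2 (3.51), SOCS1 (3.32) and IRF9 (2.98). ADAR KO under IFN-β raised 3 of 12, namely SOCS3 (83.6 and 89.0 to 219 and 276 CPM, 1.52), IRF1 (87.3 and 99.3 to 169 and 199 CPM, 0.98) and STAT2 (317 and 325 to 378 and 419 CPM, 0.31). With vehicle, ADAR KO changed 0 of 12 by edgeR, with IRF1 at an unadjusted p of 0.00631. The 4 interferon genes that passed the filter were at 0 or 1 reads in each control A549 library. All 4 were called higher after ADAR KO with IFN-β, where 10.8% of all genes were. They passed the filter only through the KO libraries given IFN-β, so that these genes had to differ. IFNB1 had 0 reads in both control and 17 and 62 in the KO libraries, IFNL1 0 in both and 24 and 88, IFNL2 1 and 0 against 28 and 86, and IFNL3 0 in both and 15 and 64. Under the filter, IFNE had 9 and 6 reads in control and 2 and 13 in KO cells with IFN-β, IFNK 3 and 8 against 3 and 7, and IFNG 0 and 0 against 0 and 2. In the same KO cells the tested antiviral effectors differed from control by at most 0.77 on the log2 scale.

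In HCC366, 41 of the 50 members passed the filter and 1 was called after ADAR KO, SAMD9L (2.44% of members, 1.25% of all genes). SAMD9L (chr7:92759369-92777698, minus strand, GRCh37) was at 20.1 and 53.6 CPM in control and 5.25 and 1.94 CPM in KO cells, or 26 and 187 reads against 6 and 3 (log2 fold change -3.46, SE 0.67, edgeR adjusted p = 0.0497). The call was lost without the second control library (-2.51, edgeR adjusted p = 0.812) and with DESeq2 size factors (0.0576). Without the second KO library, in which 85.6% of reads were not uniquely aligned, the value was -2.93. Its neighbour SAMD9 went from 131 and 368 CPM to 135 and 62.1 CPM and did not pass (-1.36, edgeR adjusted p = 0.237).

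Several other members of HCC366 had large values that did not pass. MX1 was at 1.55 and 8.31 CPM in control and 21.0 and 38.2 CPM in KO cells (2.35, edgeR adjusted p = 0.107), HELZ2 at 504 and 1084 against 1686 and 6323 CPM (2.33, 0.109), ISG20 at 18.6 and 18.9 against 38.5 and 109.9 CPM (1.99, 0.107) and BATF2 at 3.10 and 9.17 against 14.9 and 35.6 CPM (1.89, 0.158). In these 4 genes both KO libraries were above both control libraries, an order that held for 12 of the 41 members (25.1% of all genes). The members under the filter were MX2 (4 and 10 reads in control, 3 and 7 in KO cells), IFI44L (4 and 41 against 4 and 3), XAF1 (2 and 25 against 3 and 7), IFI27 (1 and 5 against 0 and 8), LAMP3 (1 and 5 against 2 and 1), IFI30 (0 and 4 against 2 and 2), RTP4 (1 and 0 against 0 and 0), CMPK2 (0 and 0 against 0 and 1) and TRIM34, with 0 in all 4 libraries.

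In NCI-H1650, 7 of 47 tested members changed after ADAR KO, 6 higher and 1 lower, where 8.6% of all genes were called (6.18% higher and 2.42% lower). RSAD2 rose from 209 and 194 CPM to 308 and 378 CPM (0.77, edgeR adjusted p = 3.1e-07), DDX60, a cytosolic helicase, from 135 and 175 to 215 and 255 CPM (0.60) and ISG20 from 83.6 and 78.8 to 118 and 117 CPM (0.53). APOL2 went from 121 and 119 to 159.7 and 179.8 CPM (0.50), TRIM5 from 22.5 and 24.8 to 31.0 and 35.2 CPM (0.48) and TRIM26 from 169 and 142 to 202 and 203 CPM (0.38). SAMD9L fell from 58.4 and 64.3 to 42.2 and 49.1 CPM (-0.43, edgeR adjusted p = 0.0306). The libraries of both targets did not overlap for any of these 7 genes, but they were called on the same libraries, so this order adds no support. Over all 47 members both KO libraries lay higher for 18 and lower for 2, against 26.2% and 24.3% of all genes. None of the 7 calls was kept in every alternative. MX1, at 146 and 368 CPM in control, was at 348 and 337 CPM after KO (0.42, edgeR adjusted p = 0.0946), a range that the 2 control libraries enclose. MX2 (1 and 7 reads in control, 6 and 12 in KO cells), IFI30 (10 and 6 against 8 and 4) and TRIM34 (4 and 0 against 2 and 3) were under the filter. None of 11 tested signalling genes was called by edgeR in HCC366 and no interferon gene passed the filter there, with 0 and 2 IFNB1 reads in control and 3 and 6 in KO cells. In NCI-H1650, 4 of 4 tested interferon genes rose, IFNB1 (6 and 8 to 59 and 59 reads, 2.85), IFNL2 (2.14), IFNL3 (2.11) and IFNL1 (32 and 44 to 174 and 180 reads, 2.01), and 4 of 12 signalling genes, IRF1 (0.84), USP18 (0.70), TYK2 (0.33) and JAK1 (0.31). IFNB1 passed the filter there only through the KO libraries.

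In NCI-H196, 24 of 47 tested members were called higher after ADAR KO and 0 lower, where 10.3% of all genes were called higher, 7.5% lower and 17.8% in either direction. These calls rest on the control library with 62679 reads, where 1 read is worth 14.7 CPM, and on its partner. The libraries of both targets did not overlap for 7 of the 24 genes (ISG20, DDX60, IFI6, SP110, TRIM26, EPSTI1 and TRANK1), and both KO libraries were above both control libraries for 12 of all 47 (25.6% of all genes). For 13 of the 24 the shallow control library was above both KO libraries. Without the first, deep control library, 17 of the 24 values were below 0 and 2 genes, CMPK2 and IFI44L, were past the threshold as lower. DESeq2 called 0 of the members.

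DDX60 was at 58.7 and 58.6 CPM in control and at 131 and 123 CPM in KO cells (1.09, edgeR adjusted p = 3.32e-17), and ISG20 at 25.4 and 14.7 CPM against 58.9 and 56.6 CPM (1.17, edgeR adjusted p = 5.14e-11). TRANK1, a large repeat protein, was at 91.1 and 117 CPM against 203 and 170.1 CPM (0.96), and EPSTI1 at 15.4 and 14.7 CPM against 34.5 and 26.2 CPM (0.84). These 4 genes were higher in both KO libraries, although the value of 14.7 CPM stands for 1 read. For 6 other called genes with large fitted changes the control and KO libraries overlapped. HELZ2 was at 113 and 337 CPM in control and 377 and 309.8 CPM in KO cells (1.49), MX2 at 25.6 and 103 against 88.3 and 70.0 CPM (1.47) and XAF1 at 24.2 and 58.6 against 69.0 and 54.8 CPM (1.23). RSAD2 was at 52.4 and 293 CPM against 169 and 115 CPM (1.18), IFI44L at 103 and 601 against 315 and 218 CPM (1.11) and MX1 at 153 and 454 against 401 and 318 CPM (1.10). Without the first control library these 6 values were -0.0202, -0.47, -0.0235, -1.21, -1.29 and -0.39. In NCI-H196, 7 of 12 signalling genes were called higher, and IFNL1, the 1 interferon gene tested, had 10 and 0 reads in control and 9 and 62 in KO cells (2.81). IFNL1 passed the filter there only through the KO libraries. LAMP3 (11 and 0 reads in control, 1 and 11 in KO cells), IFI30 (3 and 0 against 0 and 15) and TRIM34 (0 and 0 against 1 and 0) were under the filter.

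**Figure D5:**
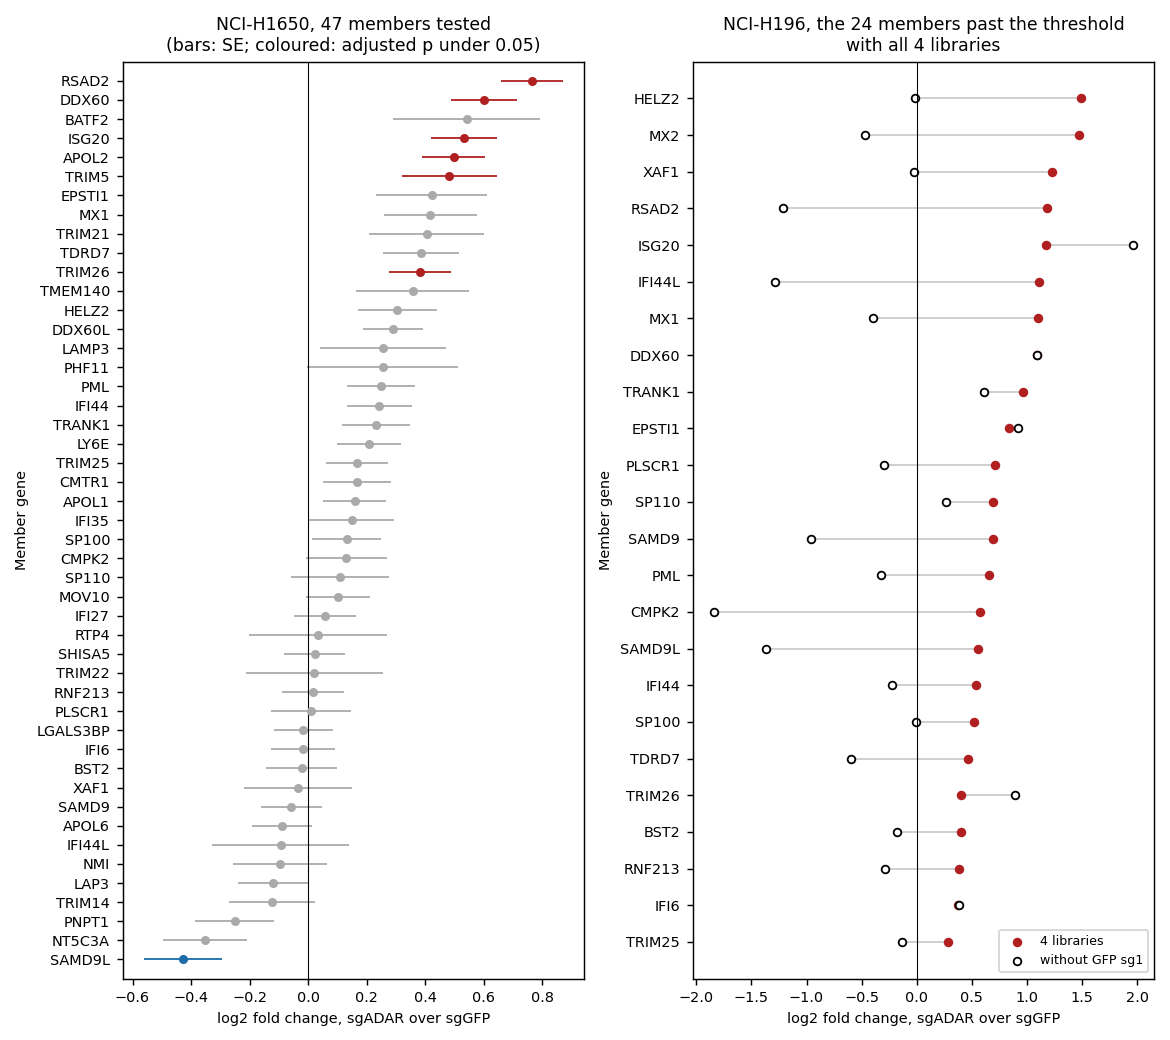
Log2 fold change of ADAR KO over control. Left, the 47 tested members in NCI-H1650 with SE as bars and called genes in colour. Right, the 24 members called in NCI-H196, with the value from all 4 libraries and the value without the first control library joined for each gene, and 17 of the 24 values without it lie below 0.

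Over the 5 KO comparisons, 31 members were called in at least 1 and 19 in none. Per comparison 0.123% to 17.8% of all genes were called, and their share over the 5 together was not counted. NCI-H196 gave 24 of the member calls, and DESeq2 kept none of these. RSAD2 was called higher in 3 of the 5 comparisons, in IFN-β-treated A549, NCI-H1650 and NCI-H196. Its NCI-H196 libraries overlapped, and the value there was -1.21 without the first control library and -0.23 with DESeq2. SAMD9L was also called in 3, lower in HCC366 and NCI-H1650 and higher in NCI-H196, where the value was -1.37 without the first control library. ISG20, DDX60 and TRIM26 were called higher in both NCI-H1650 and NCI-H196, and in both lines their KO libraries lay above the control libraries. The calls rest on these same libraries, so that their order is not separate support. TRIM5 was called higher in IFN-β-treated A549 and NCI-H1650, whereas APOL2 was called lower in IFN-β-treated A549 and higher in NCI-H1650. Differences between lines were not tested, as the lines were fitted apart.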

How the data were processed

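RNA-seq libraries (20) of 4 lung cancer cell lines were analysed, in 10 conditions of 2 sgRNAs each. Per the labels and the study's methods, ribosomal RNA-depleted directional libraries were aligned to hg19 with STAR and counted with HTSeq, versions not given in the sources used here, and the deposited values are raw read counts per Ensembl gene, without normalization. Reads that were not aligned uniquely or not assigned to a gene were left out of library sizes. Exons of TRIM34, IFI30, IFI6, SP100, TRIM5, TRIM22, TRIM25 and RNF213 overlap another gene on the same strand, where HTSeq may leave reads out. The strand setting was not given in the sources used here, so that counts of MX1, LY6E, RSAD2, CMPK2, MOV10, SP100, SP110, TRIM14, TRIM25, RNF213, XAF1 and TMEM140, whose exons overlap a gene on the opposite strand, are uncertain to that extent. Gene symbols, positions (GRCh37) and canonical transcript lengths came from GENCODE v44 mapped to GRCh37.

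Counts were fitted with edgeR 4.0.16 (R 4.3.3, limma 3.58.1) quasi-likelihood tests with TMM normalization, filterByExpr and a prior count of 0.125, in 1 fit for A549, 1 for each other line and 1 for the 10 control libraries. P-values were adjusted by Benjamini-Hochberg over all genes tested, with a threshold of 0.05. DESeq2 1.42.0, its size factors, no filter, a replicate block, 1 fit of all 20 libraries and leaving out each library were alternatives. The procedure was tested on simulated data. A group with 0 reads was given a floor of 3 reads over the group, and ratios of summed reads with 1 to 3 reads in a group have 95% exact intervals. These intervals cover counting error only. The 2 libraries of a condition differed by more than sampling noise in all 10 conditions (chi-square per degree of freedom of 1.34 to 17.5), and none was counted as a repeat.

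The members, role groups and gene lists were chosen with earlier results of these data known. Values in every library are given for the 10 members with the largest change among those past the threshold in each comparison, for the largest and smallest IFN-β response of each role group, and for members past the threshold of the interaction; other members named were chosen after their values were seen. Same-numbered sgRNAs of GFP and ADAR are different guides, so that the numbers do not pair control with KO samples. Libraries of 1 number deviated from the means of their conditions with correlations of -0.253 (HCC366), -0.0163 (NCI-H1650), -0.0209 (NCI-H196) and -0.0784 to 0.0368 (A549). In A549, vehicle and IFN-β libraries of 1 target and number share their sgRNA, which the main fit did not use as a block. A block by sgRNA was an alternative for the IFN-β response and the interaction. Some marker genes of the lists are not reported here.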

Additional observations from a re-analysis of the deposited data

Results flagged for a closer look

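The APOL1 response to IFN-β was weaker in ADAR KO than in control A549 cells by the interaction test (-0.79 on the log2 scale, edgeR adjusted p = 0.0104), and 4 of 14 alternatives ended this call.

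For 13 members, both KO libraries lay above both control libraries in one comparison and below them in another. For APOL1 and SHISA5 this was so only between vehicle and IFN-β in A549, where the interaction tests the difference (SHISA5 -0.24, edgeR adjusted p = 0.41). For the other 11 it was so between lines, and these differences were not tested. How many of all genes go both ways was not counted. In a single KO comparison 18.8% to 28.2% of all genes had both KO libraries higher, so the count is not read as particular to the members. The HCC366 values include the KO library with 85.6% of reads not uniquely aligned. The widest gaps on the log2 scale, each with the value of the higher and the lower side, were 2.78 for ISG20 (1.99 in HCC366, -0.79 in vehicle-treated A549), 2.54 for HELZ2 (2.33 in HCC366, -0.21 in vehicle-treated A549), 2.47 for MX1 (2.35 in HCC366, -0.12 in IFN-β-treated A549), 1.53 for APOL2 (1.16 in HCC366, -0.37 in IFN-β-treated A549) and 1.32 for EPSTI1 (0.84 in NCI-H196, -0.48 in IFN-β-treated A549). The others were 0.68 for APOL6 (NCI-H196 against HCC366), 0.61 for LAP3 (vehicle-treated A549 against HCC366), 0.61 for IFI6 (NCI-H196 against IFN-β-treated A549), 0.58 for TMEM140 (HCC366 against vehicle-treated A549), 0.54 for MOV10 (NCI-H196 against HCC366) and 0.25 for TRIM14 (NCI-H196 against vehicle-treated A549). Of these values, APOL2 in IFN-β-treated A549 and EPSTI1 and IFI6 in NCI-H196 passed the edgeR test, and the others did not.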

How the results depend on the processing

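Where a library was left out, the lone library of its condition was assumed to vary like the others. The IFN-β response kept its direction for all 46 called members in every alternative, with 45 to 47 calls, and KO in vehicle-treated A549 gave 0 calls in each. Calls after KO depended on the analysis. Under IFN-β, 9 members were called in the main analysis, 1 with all 20 libraries in 1 fit and 1 to 16 when 1 library was left out (16 without the first control library, 5 without the second and 1 without the second KO library), and the replicate block gave 7. The interaction gave 1 call in the main analysis, 2 with DESeq2, with no filter, with the replicate block and with the block by sgRNA, 0 with all 20 libraries and 0 to 4 when 1 library was left out (4 without the first IFN-β-treated control or KO library, 3 without the second such control, 2 without the first vehicle KO library and 0 without the second vehicle control, the second vehicle KO or the second IFN-β-treated KO library). In HCC366 the count of 1 became 0 with size factors, 4 with DESeq2, 6 with no filter, 5 with the replicate block, 6 with the block of crossed numbers (chosen after seeing the data), 12 with all 20 libraries and 1 to 30 when 1 library was left out (30 without the first KO library and 6 without the second). In NCI-H1650 the count of 7 became 4 with DESeq2, 0 with all 20 libraries, 8 with the replicate block and 5 to 10 when 1 library was left out. In NCI-H196 the count of 24 became 0 with DESeq2, 7 with the replicate block, 2 with all 20 libraries and 2 to 27 when 1 library was left out (2 without the first control, 7 without the first KO and 5 without the second KO library). Same-numbered guides do not pair control with KO samples. The cause of these changes was not tested. Without the first NCI-H196 control library, that line had 23 calls against vehicle A549 and 27 against IFN-β-treated A549 in place of 41 and 46, and over the libraries left out these counts ran from 23 to 41 and from 27 to 46. DESeq2 size factors moved the members' log2 differences from vehicle A549 by a median of 0.12 in HCC366 and 0.13 in NCI-H1650, with no change of direction.

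Values that turned their direction lay in NCI-H196, with 2 exceptions in HCC366. With DESeq2 the KO values of RSAD2, CMPK2, SAMD9, SAMD9L and IFI44L were -0.23, -0.73, -0.18, -0.52 and -0.39. When 1 library was left out the KO values ran from -0.39 to 1.16 for MX1, -0.47 to 1.60 for MX2, -0.18 to 0.41 for BST2, -0.30 to 0.74 for PLSCR1, -1.21 to 1.26 for RSAD2, -1.84 to 0.75 for CMPK2, -0.0202 to 1.54 for HELZ2, -0.96 to 0.73 for SAMD9, -1.37 to 0.61 for SAMD9L, -0.60 to 0.48 for TDRD7, -0.32 to 0.67 for PML, -0.0109 to 0.74 for SP100, -0.13 to 0.29 for TRIM25, -0.29 to 0.45 for RNF213, -0.23 to 0.74 for IFI44, -1.29 to 1.23 for IFI44L and -0.0235 to 1.47 for XAF1, with the lowest value of each gene without the first control library. Without the first KO library CMPK2 was at -0.0264. Against IFN-β-treated A549, RSAD2 and SAMD9L were at 0.20 and 0.0986 with DESeq2 and ran from -1.07 to 1.17 and -1.06 to 0.70 when 1 library was left out, with the highest value without the first control library. Against vehicle A549, BATF2 in NCI-H196 ran from -5.45 (without that library) to 1.73, and PNPT1 and TRIM14 in HCC366 from -0.0892 to 0.73 and -0.25 to 0.70, with the lowest value without the second HCC366 control library. Depth limits NCI-H196 most, where 1 read of the second control library is worth 14.7 CPM.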
